A study of Mus musculus with 6 samples.

Results

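Of 42 receptor tyrosine kinases, 4 were detected in macrophages sorted from mouse pancreatic tumours: Epha2, Ryk, Insr and Erbb3. The set takes in receptor tyrosine kinases other than the TAM receptors and Csf1r. It was chosen by gene symbol, with 42 of the 53647 genes of the deposited table matching and no symbol repeated. It does not hold every such kinase: Flt1, a receptor for vascular endothelial growth factor, was left out. A gene was called detected when its mean over the 6 libraries was 1 FPKM or more (fragments per kilobase of transcript, scaled to sequencing depth). That level, which is part of how the set was defined, is given as a description and not tested. The remaining 38 had means of 0.140 FPKM or less. Of the 42, 14 had enough counts to be tested between the sorted populations, and 0 of those passed the threshold of the main count test.

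The cells came from orthotopic pancreatic ductal adenocarcinoma models, in which tumours grow in the pancreas, built in C57BL/6 mice. Macrophages from these tumours were sorted by Cxcr4, the receptor for the chemokine Cxcl12, into a Cxcr4+ group of 3 libraries and a Cxcr4- group of 3 libraries. The labels list Cxcr4+ and Cxcr4- under genotype, but the protocol describes a sort and no other allele or treatment; the sources used here give neither the age of the mice nor the implanted tumour line, nor whether animals were pooled. Total RNA was sequenced to 46444934 to 55740671 estimated counts per library. Nothing in the labels ties a library to its own mouse, and p-values therefore reflect only library-to-library spread, which may be technical. All 10 macrophage markers were detected, with a summed level of 8597 to 10574 FPKM in Cxcr4+ and 7815 to 9054 FPKM in Cxcr4- libraries. Most of that sum came from Lyz2, at 6053 to 7797 FPKM in Cxcr4+ and 5337 to 6564 FPKM in Cxcr4- libraries. Of the 10, 0 passed the threshold of the main count test.

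Receptor tyrosine kinases are single-pass membrane proteins that bind a growth factor, a membrane-bound ligand or collagen outside the cell and, in most of them, phosphorylate tyrosines on their own tails inside it. Adaptors such as Grb2 read those phosphotyrosines and pass the signal to Ras and phosphoinositide 3-kinase. Macrophages depend on one member of this superfamily, Csf1r, for survival, while many of the others are best known from epithelium, endothelium, fibroblasts or neurons. In the same libraries Csf1r had 78.8 ± 13.6 FPKM in Cxcr4+ and 80.1 ± 7.18 FPKM in Cxcr4- macrophages (SD, n = 3 each), above Epha2, the most abundant of the 42, in every library.

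The promoters of Epha2 and Ryk are shown because these were the most abundant members and their start sites differ in base composition. Both are RefSeq windows of 300 bases on GRCm38.p6, from 250 bases before to 50 after the annotated start, on the forward strand, with every CG dinucleotide in capitals. The Epha2 window lies at chr4:141300971-141301270 and the Ryk window at chr9:102834670-102834969.
Epha2: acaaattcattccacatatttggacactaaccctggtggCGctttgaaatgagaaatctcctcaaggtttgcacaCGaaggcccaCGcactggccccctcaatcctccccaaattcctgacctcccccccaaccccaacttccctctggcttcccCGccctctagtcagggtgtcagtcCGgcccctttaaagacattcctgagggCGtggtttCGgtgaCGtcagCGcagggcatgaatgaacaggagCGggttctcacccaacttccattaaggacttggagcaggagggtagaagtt
Ryk: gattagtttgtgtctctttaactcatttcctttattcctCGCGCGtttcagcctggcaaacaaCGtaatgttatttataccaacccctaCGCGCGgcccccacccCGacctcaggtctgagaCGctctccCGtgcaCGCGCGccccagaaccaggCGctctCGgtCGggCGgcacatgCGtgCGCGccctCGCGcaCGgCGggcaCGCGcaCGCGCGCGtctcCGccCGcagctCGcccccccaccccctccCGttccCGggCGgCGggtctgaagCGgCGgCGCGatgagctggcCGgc
The Epha2 window held 10 CG dinucleotides and the Ryk window 42, against a median of 7 over 32851 promoter windows of that length. Windows were found for 36 members, and their median was 18. Of the 34 members that were not detected and had a window, 25 had one richer in CG than that of Epha2, among them Epha3 with 18 and Alk with 28, both at 0 counts in every library. The Epha2 window also held the cyclic AMP response element TGACGTCA, which reads the same on both strands, starting at base 218 of the window. That motif was searched for after the sequence had been read; it stood in 1.79% of all windows and in no other window of a member. A match is a run of letters and not a measured binding site.

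Epha2 (ENSMUSG00000006445), a receptor for ephrin-A ligands carried on neighbouring cells, was the leading member. It had 17.2, 13.7 and 17.3 FPKM in Cxcr4+ libraries, against 23.5, 18.0 and 22.6 FPKM in Cxcr4- libraries. Every Cxcr4+ library lay below every Cxcr4- library, by a narrow margin between 17.3 and 18.0, and the replicates numbered 2 were the lowest of their groups. The means were 16.1 ± 2.04 FPKM in Cxcr4+ and 21.4 ± 2.98 FPKM in Cxcr4- macrophages (SD, n = 3 each), a ratio of 0.753. On the log2 scale the change was -0.42 (SE 0.17, 95% interval -0.82 to -0.02), and its adjusted p in edgeR's quasi-likelihood test over all genes was 0.999, so it did not pass; the unadjusted p was 0.0430. By exact permutation of the 6 libraries, two-sided, p was 0.1, which is as low as this design allows. Groups failed to overlap, with Cxcr4+ lower, for 4.91% of all genes with a mean of 1 FPKM or more, and for 10.4% in either direction. No single library set the direction: the log2 fold change ran from -0.56 without Cxcr4- replicate 2 to -0.28 without Cxcr4+ replicate 2. The unadjusted edgeR p was 0.118 without Cxcr4+ replicate 2, 0.143 without Cxcr4- replicate 1 and 0.118 without Cxcr4- replicate 3. It was 0.0493 and 0.0485 without Cxcr4+ replicates 1 and 3, and 0.0087 without Cxcr4- replicate 2. Epha2 took 62.4% of the summed FPKM of the set and stood at percentile 95.7 of all genes by mean FPKM. The gene spans bases 141028551 to 141056695 of chromosome 4, forward strand; this and later gene positions are those of GRCm39.

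The other ephrin receptors of the set, which does not hold the whole family, were close to silent. Together the 10 ephrin receptors had 3795 to 5161 counts in Cxcr4+ libraries and 4740 to 6301 counts in Cxcr4- libraries, of which Epha2 held 3765 to 5072 and 4686 to 6240. Ephb4, the receptor of ephrin-B2, came next with 16 to 38 counts in Cxcr4+ and 11 to 51 counts in Cxcr4- libraries. Epha1 had 5, 6 and 4 counts in Cxcr4+ libraries, against 22, 27 and 7 counts in Cxcr4- libraries, and fell short of the filter on low counts. Epha3 was at 0 counts in every library. Efna1, which encodes ephrin-A1, a ligand of Epha2, had 2.90 ± 0.199 FPKM in Cxcr4+ and 3.51 ± 0.212 FPKM in Cxcr4- macrophages (log2 change of -0.28 with SE 0.16, edgeR adjusted p = 0.999). Its groups did not overlap either, and that difference did not pass.

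Ryk (ENSMUSG00000032547), a receptor for Wnt proteins whose kinase domain is inactive, had 6.89, 7.31 and 7.55 FPKM in Cxcr4+ libraries, against 7.45, 8.12 and 7.69 FPKM in Cxcr4- libraries. The groups overlapped and no library stood far from the rest. Ryk's log2 fold change was -0.10 (SE 0.09, adjusted p = 0.9997 by edgeR), with a 95% interval of -0.31 to 0.11. The gene spans bases 102712116 to 102785152 of chromosome 9, forward strand. Its relatives by ligand were near the floor: Ror1 and Ror2, which also bind Wnt proteins, reached at most 4 counts in a library, and Musk, the agrin-responsive receptor of muscle, at most 12.

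Insr (ENSMUSG00000005534), the insulin receptor, had 2.24, 1.59 and 1.54 FPKM in Cxcr4+ libraries, against 1.41, 1.90 and 1.79 FPKM in Cxcr4- libraries. Cxcr4+ replicate 1 was the highest library and Cxcr4- replicate 1 the lowest, with the others between 1.54 and 1.90. The log2 fold change of 0.08 (SE 0.18, 95% interval -0.35 to 0.50, adjusted p = 0.9997 by edgeR) turned to -0.14 without Cxcr4+ replicate 1 and to -0.02 without Cxcr4- replicate 1. Igf1r, the receptor for insulin-like growth factor 1, had 40, 27 and 22 counts in Cxcr4+ libraries, against 16, 12 and 12 counts in Cxcr4- libraries. Its groups did not overlap, at 0.0135 to 0.0284 FPKM as group means, and its log2 fold change of 1.001 (SE 0.50, adjusted p = 0.999 by edgeR) did not pass. The insulin receptor substrates, named after their values were seen, were nearly absent, with Irs1 at 0 counts in every library and Irs2 at no more than 8 counts in a library. Insr spans bases 3172061 to 3329617 of chromosome 8, reverse strand.

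Erbb3 (ENSMUSG00000018166), the neuregulin receptor with a weak kinase that signals by pairing with other ErbB receptors, had 1.005, 1.13 and 1.26 FPKM in Cxcr4+ libraries, against 1.14, 1.21 and 1.05 FPKM in Cxcr4- libraries. The group means were 1.13 FPKM in both, with SDs of 0.129 and 0.0780 (n = 3 each). Its log2 fold change was -0.0043 (SE 0.15, adjusted p = 0.9997 by edgeR), and its 95% interval ran from -0.36 to 0.36. The partners were far lower. Erbb2 had 12, 0 and 15 counts in Cxcr4+ libraries, against 4, 4 and 6 counts in Cxcr4- libraries, and Erbb4 had at most 4 counts in a library. Its neuregulin ligand Nrg1, also named after its values were seen, had at most 15 counts in a library. The 8 Schwann cell and neuron markers summed to 13.6 to 14.5 FPKM in Cxcr4+ and 14.3 to 16.6 FPKM in Cxcr4- libraries. Of these markers 1 was detected, Elavl4 was at 0 counts in every library, and 0 of the 4 tested passed after adjustment in edgeR. The part of Schwann cell or neuron RNA in the value of Erbb3 was not tested. Erbb3 spans bases 128403392 to 128425521 of chromosome 10, reverse strand.

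**Figure D1:**
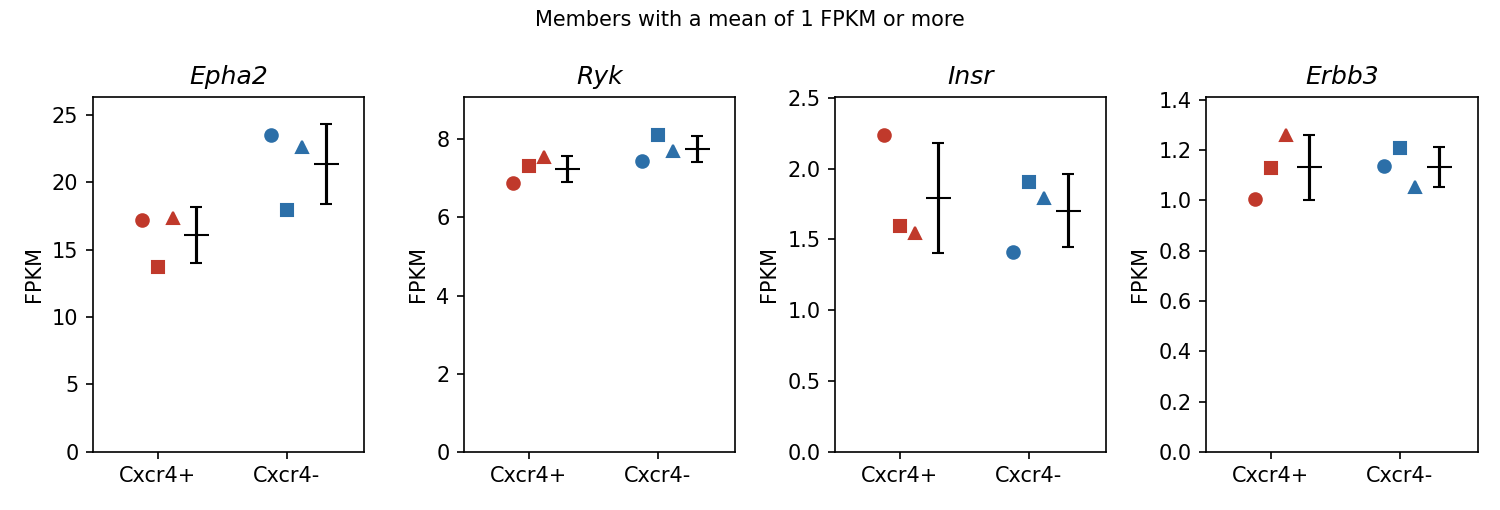
FPKM of the 4 detected members in each library (red, Cxcr4+; blue, Cxcr4-; circles, squares and triangles are replicates 1, 2 and 3), with the mean and SD of each group (n = 3) in black and axes that start at 0. The groups do not overlap for Epha2, between 17.3 FPKM in Cxcr4+ and 18.0 FPKM in Cxcr4- libraries, and they overlap for Ryk, Insr and Erbb3.

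A wide gap separated the detected members from the rest. Erbb3, just inside the threshold, had a mean of 1.13 FPKM over the 6 libraries, and Pdgfrb, just outside, had 0.140 FPKM, so that the gap was 8.08-fold. Flt1, which is not in the set, fell inside that gap with a mean of 0.316 FPKM. By the threshold of 1 FPKM, 9.52% of the members were detected, against 20.9% of all genes in the table and 43.3% of those with a protein-coding transcript. Of the 38 members below it, 4 (Epha3, Alk, Ret and Ros1) were at 0 counts in all libraries. A further 17 had counts but never more than 12 in a library, the floor used here, which is 3 fragments of 4 counts or 0.215 to 0.258 CPM (counts scaled to sequencing depth). The remaining 17 passed the floor in at least 1 library, and 3 of them, Ddr1, Ddr2 and Fgfr1, in all 6. Expression of the first 21 was not detectable above that floor at this depth.

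The members under the floor included receptors known to mark other cells. Kit, the stem cell factor receptor of mast cells, had 4, 8 and 8 counts in Cxcr4+ libraries, against 0, 6 and 0 counts in Cxcr4- libraries. Flt3, the receptor of dendritic cell precursors, had 4 counts in a single library, Cxcr4+ replicate 1. The angiopoietin receptor Tek and its relative Tie1, both endothelial, had at most 12 and 8 counts in a library. Kdr, the main endothelial receptor for vascular endothelial growth factor, was slightly above the floor with 28, 27 and 27 counts in Cxcr4+ libraries, against 21, 23 and 6 counts in Cxcr4- libraries (log2 change of 0.60 with SE 0.58, edgeR adjusted p = 0.9997). Of 8 mast cell and basophil markers 5 were at 0 counts in every library, Mcpt4, Tpsb2, Cma1, Fcer1a and Ms4a2, and of 8 dendritic cell markers 3 were, Ccr7, Siglech and Cd209a. In each of these lists 2 markers were over the floor in all 6 libraries. Counts of Hdc ran from 53 to 55 in Cxcr4+ libraries, against 36 to 53 for Cxcr4-, and those of Gata2 from 19 to 21 in Cxcr4+ libraries, against 13 to 16 for Cxcr4-. Itgax had 99 to 166 counts in Cxcr4+ libraries, against 65 to 93 for Cxcr4-, and Zbtb46 had 27 to 29 in Cxcr4+ libraries, against 23 to 35 for Cxcr4-. These counts are not scaled to depth, and in FPKM the groups overlapped for every dendritic cell marker, Itgax included. The endothelial list, with Cldn5 at 0, summed to 1.74 to 2.08 FPKM in Cxcr4+ and 1.52 to 1.91 FPKM in Cxcr4- libraries, and most of that came from Eng at 1.39 to 1.74 FPKM over the 6 libraries.

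**Figure D2:**
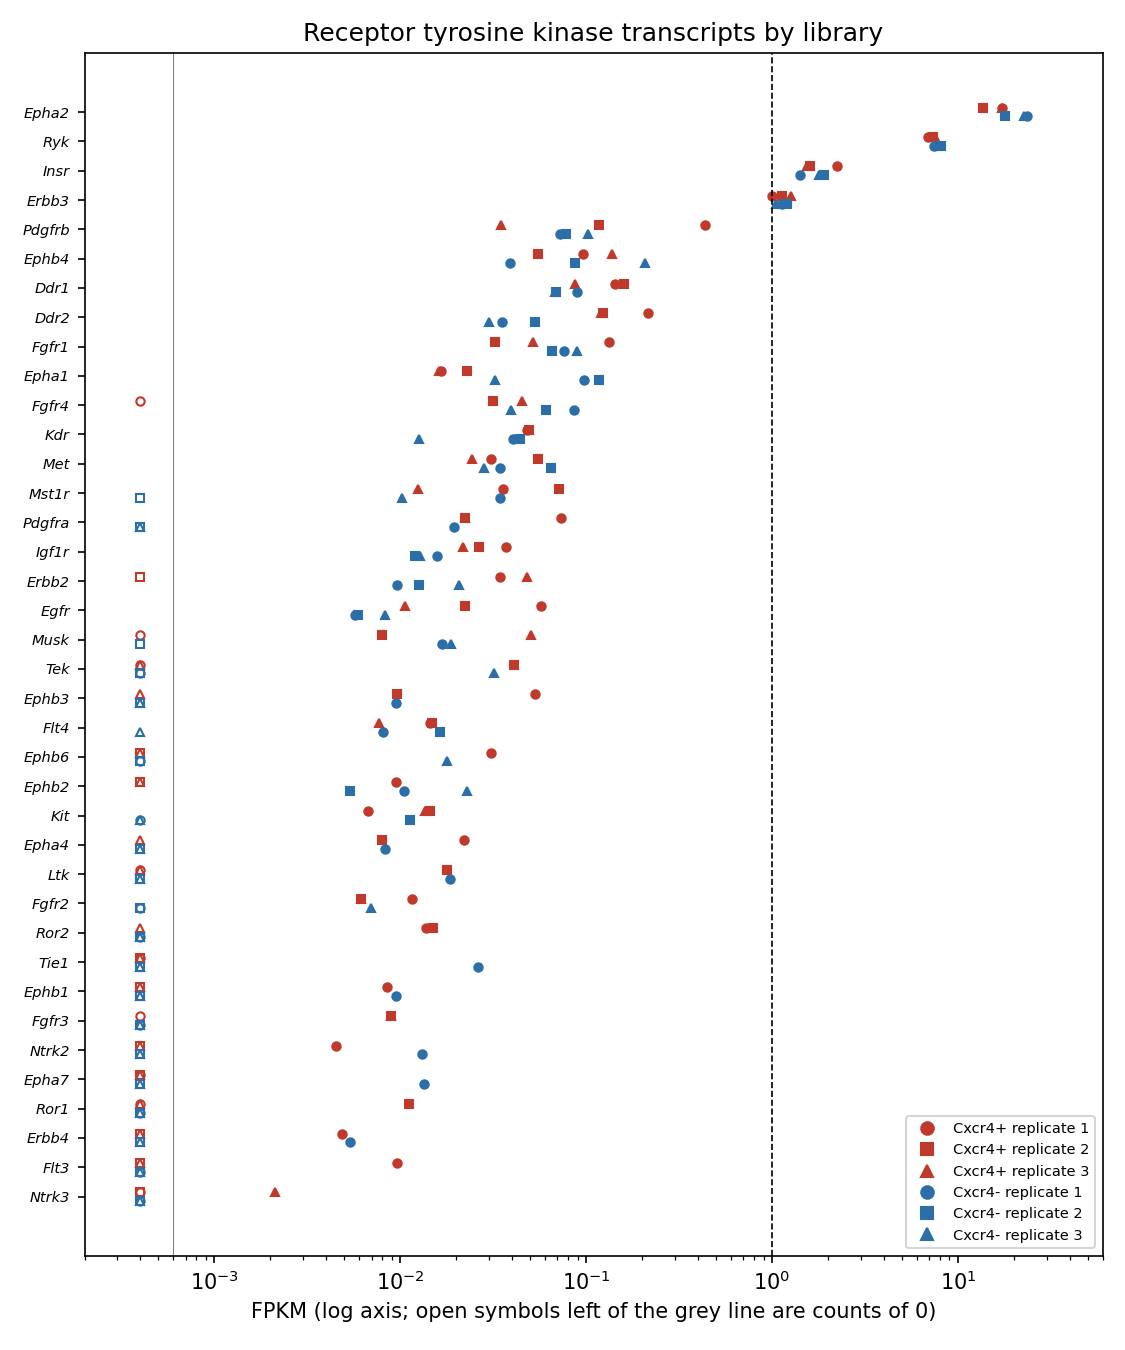
FPKM on a log axis of the 38 members with a count above 0, ordered by mean, for each Cxcr4+ (red) and Cxcr4- (blue) library. Open symbols left of the grey line are counts of 0, and the dashed line marks 1 FPKM, which Epha2, Ryk, Insr and Erbb3 alone reach in any library.

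Of the 42 members, 14 passed the filter on low counts and were tested, the 4 detected and 10 below 1 FPKM. Among them 0 passed an adjusted p of 0.05 in edgeR's quasi-likelihood test, against 0.0312% of all 16031 genes tested (0.0125% higher and 0.0187% lower in Cxcr4+). Of the 14, 2, Epha2 and Ddr2, had an unadjusted p under 0.05, against 4.85% of all. By DESeq2, which called 0.405% of all genes, 1 member passed, Ddr2; by limma-trend on log2(FPKM + 1) 0 did. The median log2 fold change was -0.05 over the 4 detected members and 0.34 over the 14 tested, against 0.00041 over all genes tested, and over the 14 it was -0.10 without Cxcr4+ replicate 1. Groups did not overlap for 4 of the 14 with Cxcr4+ higher (Ddr2, Igf1r, Kdr and Pdgfra), against 5.5% of all genes tested. They did not overlap for 1 with Cxcr4+ lower (Epha2), against 4.87%. Over all 42 members, which adds Egfr and Epha1, the groups did not overlap for 5 with Cxcr4+ higher and 2 with Cxcr4+ lower, against 4.3% and 4.06% of the 24972 genes with a count in any library, or 8.36% in either direction. Members can pass the filter through the group in which they are high, so these counts describe the 14 and not the set. For 11 of the 14 all 6 libraries reached the filter's minimum; the exceptions were Kdr, Mst1r and Pdgfra.

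Ddr2 (ENSMUSG00000026674), a collagen receptor found chiefly on fibroblasts and other mesenchymal cells, had the smallest p of the set. It had 126, 68 and 66 counts in Cxcr4+ libraries, against 19, 28 and 15 counts in Cxcr4- libraries. In FPKM these were 0.214, 0.124 and 0.121 in Cxcr4+ and 0.0353, 0.0533 and 0.0301 in Cxcr4- libraries. The lowest Cxcr4+ library, at 0.121 FPKM, lay above the highest Cxcr4- library, at 0.0533 FPKM, and Cxcr4+ replicate 1 was the highest of all. Ddr2's log2 fold change was 1.93 (SE 0.41, 95% interval 0.98 to 2.89), and its adjusted p in edgeR's quasi-likelihood test was 0.678, so it did not pass; the unadjusted p was 0.00180. DESeq2 gave a log2 fold change of 1.94 with an adjusted p of 0.0239, which passed. Across the other settings tried, DESeq2 included, Ddr2 had adjusted p-values between 0.0239 and 0.99996, and DESeq2 was the sole one under 0.05. Leaving out any 1 library gave 1.59 to 2.15, the lowest without Cxcr4+ replicate 1. In fragments of 4 counts the ratio of summed CPM was 3.70, with an exact 95% counting interval of 2.12 to 6.86 that covers counting error only.

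The level of Ddr2 stayed far below 1 FPKM in every library, and a neighbouring gene and fibroblast markers were measured beside it. Its locus, bases 169799876 to 169938298 of chromosome 1, reverse strand, overlaps 3110045C21Rik on the opposite strand, which had 39, 19 and 15 counts in Cxcr4+ libraries, against 0, 0 and 25 counts in Cxcr4- libraries. Whether the counting used strand is not given in the sources used here, so reads of the pair cannot be told apart. The 10 fibroblast markers summed to 18.5, 4.90 and 5.28 FPKM in Cxcr4+ libraries, against 4.14, 3.65 and 4.36 FPKM in Cxcr4- libraries, highest in Cxcr4+ replicate 1. Of that list 3 markers were detected, 0 passed the edgeR test after adjustment, and 2, Sparc and Col3a1, had an unadjusted p under 0.05 and groups that did not overlap. Sparc, which encodes a collagen-binding matrix protein, had 5.205, 1.80 and 1.44 FPKM in Cxcr4+ libraries, against 0.797, 0.612 and 0.681 FPKM in Cxcr4- libraries. Its log2 change was 1.91 (SE 0.51, edgeR adjusted p = 0.953), next to 1.93 for Ddr2. Col3a1, a fibrillar collagen gene, had 1.42, 0.276 and 0.354 FPKM in Cxcr4+ libraries, against 0.0954, 0.202 and 0.179 FPKM in Cxcr4- libraries (log2 change of 2.12 with SE 0.66, edgeR adjusted p = 0.953). In both, as in Ddr2, every Cxcr4+ library lay above every Cxcr4- library and Cxcr4+ replicate 1 was the highest. Col1a1, Col1a2, Pdpn and Postn were also highest in that library, with overlapping groups, while Lum was at 0 counts in every library and Dcn at no more than 0.0283 FPKM. Thy1 had 0.222 FPKM in Cxcr4+ replicate 1 and 0.215 FPKM in Cxcr4- replicate 1. Fap went the other way, with 64, 74 and 69 counts in Cxcr4+ libraries, against 131, 62 and 41 counts in Cxcr4- libraries (log2 change of -0.31 with SE 0.44). The part of fibroblast RNA in the difference was not tested. In bulk RNA, more cells of a type and more RNA per cell cannot be told apart. Ddr1, the epithelial relative of Ddr2, had 43, 45 and 25 counts in Cxcr4+ libraries, against 25, 19 and 18 counts in Cxcr4- libraries (log2 change of 0.72 with SE 0.44, edgeR adjusted p = 0.999).

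The platelet-derived growth factor receptors were both highest in 1 library, Cxcr4+ replicate 1. Pdgfrb, the receptor of pericytes and smooth muscle cells, had 152, 38 and 12 counts in Cxcr4+ libraries, against 23, 24 and 30 counts in Cxcr4- libraries. Cxcr4+ replicate 1 alone held 52.1% of its summed FPKM, while the other Cxcr4+ libraries lay on either side of the Cxcr4- group. The log2 fold change of 1.22 (SE 0.81, adjusted p = 0.999 by edgeR) turned to -0.19 without that library. Pdgfra, the receptor of fibroblasts (chromosome 5, bases 75312953 to 75358876, forward strand), had 47, 14 and 14 counts in Cxcr4+ libraries, against 12, 0 and 0 counts in Cxcr4- libraries, and Cxcr4+ replicate 1 held 53.3% of its FPKM. Its ratio in fragments was 5.77, with an exact 95% counting interval of 1.70 to 30.5. Its fitted log2 fold change of 2.45 (SE 1.37, adjusted p = 0.999 by edgeR) became 1.65 when Cxcr4+ replicate 1 was left out, and 7.59 when Cxcr4- replicate 1 was, where the Cxcr4- group is at 0 and the fitted value depends on the prior count.

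Egfr, the epidermal growth factor receptor (chromosome 11, bases 16702203 to 16868158, forward strand), had 42, 15 and 8 counts in Cxcr4+ libraries, against 4, 4 and 5 counts in Cxcr4- libraries, and did not pass the filter on low counts. All Cxcr4- libraries were under the floor, and Cxcr4+ replicate 1 held 52.0% of the summed FPKM. The ratio of mean FPKM was 4.55 with all libraries and 2.49 without it. The same library was the highest for 7 of the 17 members under 1 FPKM that passed the floor anywhere, among them Fgfr1, with 85, 20 and 31 counts in Cxcr4+ libraries, against 44, 37 and 47 counts in Cxcr4- libraries. Cxcr4+ replicate 1 was also the deepest library, at 55740671 counts. It had 20433 genes with a count above 0, against 19457 to 19956 in the others. The share of all low genes that were highest in it was not counted. The log2 fold change of Fgfr1, a fibroblast growth factor receptor, was -0.07 with all libraries and -0.86 without Cxcr4+ replicate 1. The summed counts of the 38 members under 1 FPKM, not scaled to depth, were 729, 387 and 325 in Cxcr4+ libraries, against 312, 259 and 256 in Cxcr4- libraries. In FPKM the sums were 1.54, 0.944 and 0.771 in Cxcr4+ libraries, against 0.795, 0.702 and 0.758 in Cxcr4- libraries, and the groups overlapped. Pericyte and smooth muscle markers summed to 13.5, 3.47 and 4.54 FPKM in Cxcr4+ libraries, against 1.596, 8.65 and 3.84 FPKM in Cxcr4- libraries, with none of the 8 at 0 in every library. In Cxcr4+ replicate 1 most of that sum came from Acta2 at 9.88 FPKM and Tagln at 2.78 FPKM. Rgs5, Myh11 and Des were instead highest in Cxcr4- replicate 2, at 0.190, 0.517 and 1.29 FPKM. Cspg4, Notch3 and Abcc9, highest in Cxcr4+ replicate 1, never passed the floor. The part of pericyte and smooth muscle RNA, like that of fibroblast RNA, was not tested.

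**Figure D3:**
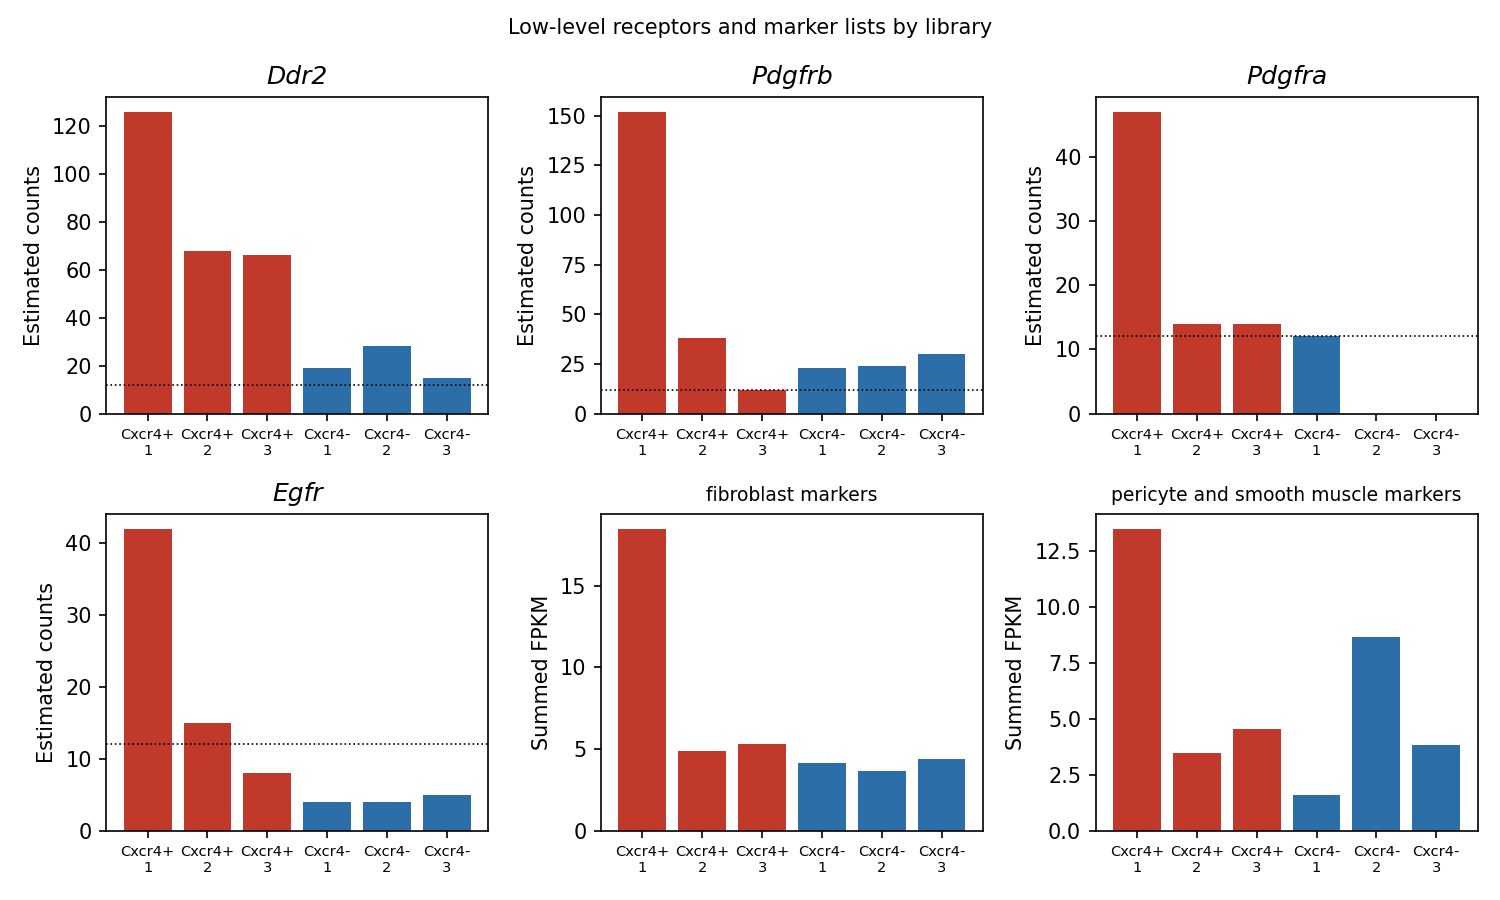
Estimated counts of Ddr2, Pdgfrb, Pdgfra and Egfr, and summed FPKM of the fibroblast and the pericyte and smooth muscle marker lists, in each library (red, Cxcr4+; blue, Cxcr4-); the dotted line is the floor of 12 counts. Cxcr4+ replicate 1 is the highest bar in every panel, and for Ddr2 the other Cxcr4+ libraries, at 68 and 66 counts, also exceed the Cxcr4- libraries at 15 to 28. Within the pericyte and smooth muscle list, Rgs5, Myh11 and Des were highest in Cxcr4- replicate 2.

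Further members were low in both groups. Met, the receptor for hepatocyte growth factor, had 15, 25 and 12 counts in Cxcr4+ libraries, against 16, 28 and 12 counts in Cxcr4- libraries (log2 change of -0.23 with SE 0.58, edgeR adjusted p = 0.9997). Mst1r, the receptor for macrophage-stimulating protein, which resident macrophages of the mouse are known to carry, had 12, 21 and 5 counts in Cxcr4+ libraries, against 10, 0 and 3 counts in Cxcr4- libraries (1.35, SE 1.15, adjusted p = 0.9997). Fgfr4 had 0, 7 and 10 counts in Cxcr4+ libraries, against 18, 12 and 8 counts in Cxcr4- libraries and was not tested. The 12 tumour and ductal epithelial markers, none of them at 0 in every library, summed to 1.84 to 3.44 FPKM in Cxcr4+ and 3.72 to 6.65 FPKM in Cxcr4- libraries. Of them 3, Epcam, Lgals4 and Esrp1, had an unadjusted p under 0.05, all lower in Cxcr4+, and 0 passed after adjustment in edgeR. The part of epithelial RNA in the values of Met, Mst1r and Fgfr4, or of Epha1, Epha2 and Erbb3 above, was not tested. The remaining receptors, for neurotrophins (Ntrk2 and Ntrk3), for ligands of Ret, Alk and Ltk, and Ros1, had at most 15 counts in a library.

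Over the 14 tested members, the sign of the log2 fold change held in every fit with 1 library left out for Epha2, Ryk, Ddr1, Ddr2, Igf1r, Kdr, Mst1r and Pdgfra. It changed at least once for Erbb3, Fgfr1, Insr, Ephb4, Met and Pdgfrb. Cxcr4+ replicate 1 decided the sign for Pdgfrb and, with others, for Insr and Erbb3.

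**Figure D4:**
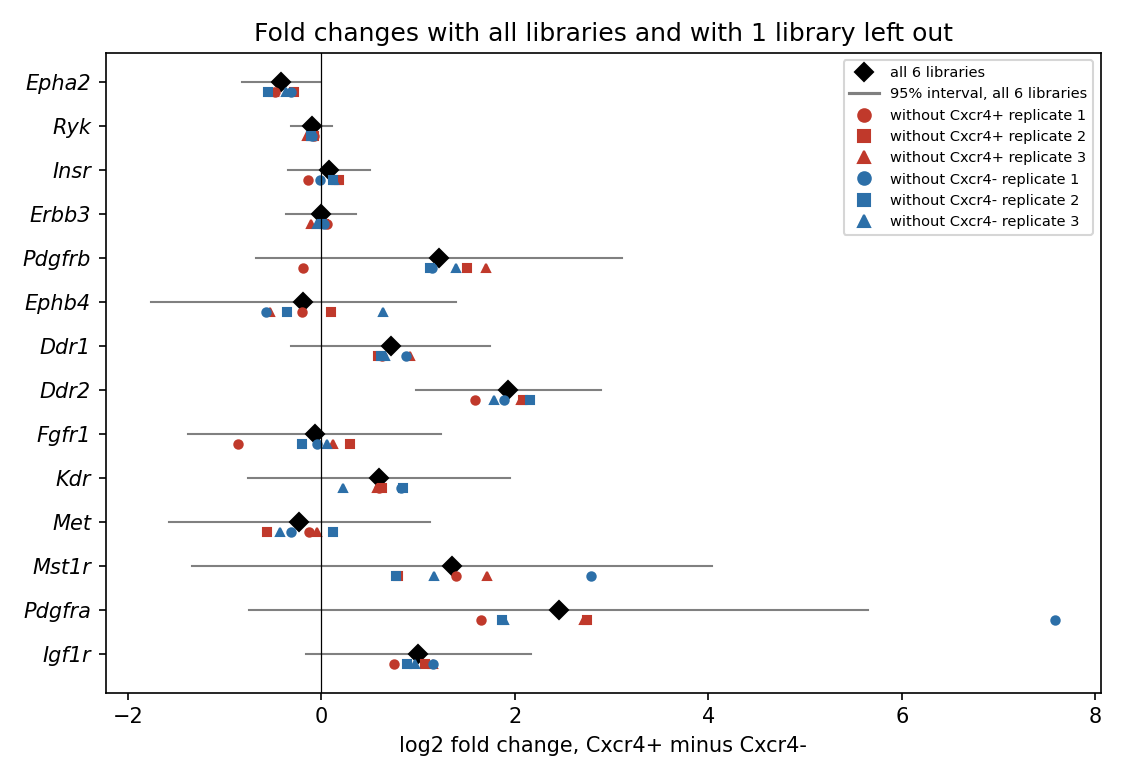
Log2 fold change (Cxcr4+ minus Cxcr4-) of the 14 tested members with all 6 libraries (black diamonds, with the 95% interval as a grey line) and with each library left out in turn (coloured symbols). The points of Ddr2 stay between 1.59 and 2.15 and those of Epha2 between -0.56 and -0.28, while Pdgfrb falls to -0.19 without Cxcr4+ replicate 1.

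Among genes that act with the receptors, 19 of 26 adaptors and docking proteins (73.1%) were detected, 17 of 22 negative regulators (77.3%; Spry3, listed too, had no row) and 12 of 45 ligands (26.7%). These shares stand beside 43.3% of genes with a protein-coding transcript and 9.52% of the 42 receptors, as a description without a test. No gene of the 3 lists passed an adjusted p of 0.05 in edgeR's test, with 0 of 22, 0 of 19 and 0 of 26 tested in either direction, against 0.0312% of all genes. Those with an unadjusted p under 0.05 numbered 2 of 22, 3 of 19 and 3 of 26, against 4.85% of all genes tested. Median log2 fold changes were -0.03 for adaptors, 0.06 for negative regulators and 0.12 for ligands.

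Among adaptors, Nck1, which links phosphotyrosines to the actin machinery, had 4.45, 3.90 and 4.44 FPKM in Cxcr4+ libraries, against 6.42, 5.83 and 6.54 FPKM in Cxcr4- libraries. The groups did not overlap, and the log2 fold change of -0.56 (SE 0.13) had an adjusted p of 0.782 by edgeR, with an unadjusted p of 0.00307. Rasa1, a GTPase-activating protein for Ras, stood at 5.01 ± 0.783 FPKM in Cxcr4+ and 4.09 ± 0.467 FPKM in Cxcr4- macrophages, and the catalytic subunit gene Pik3ca at 5.67 ± 0.618 FPKM in Cxcr4+ and 6.28 ± 0.684 FPKM in Cxcr4- macrophages. The adaptor Grb2 had 29.5 ± 1.14 FPKM in Cxcr4+ and 25.0 ± 5.56 FPKM in Cxcr4- macrophages, where replicate 2 was low at 18.6 FPKM. Dok3, an inhibitory docking protein of immune cells, was the most abundant of the list at 86.6 ± 5.64 FPKM in Cxcr4+ and 93.5 ± 4.79 FPKM in Cxcr4- macrophages.

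Among negative regulators, Cblb, a ubiquitin ligase that marks activated receptors for degradation, had 2.87 ± 0.131 FPKM in Cxcr4+ and 3.51 ± 0.205 FPKM in Cxcr4- macrophages (log2 fold change -0.29, adjusted p = 0.998 by edgeR). The phosphatase gene Ptpn2 had 8.03 ± 0.696 FPKM in Cxcr4+ and 6.52 ± 0.531 FPKM in Cxcr4- macrophages (0.29, adjusted p = 0.999). Sh3kbp1, a partner of Cbl in receptor uptake, had a log2 fold change of 0.17, and Spred1, an inhibitor of Ras signalling, one of 0.10. Dusp4, a phosphatase of MAP kinases, was the most abundant at 74.8 ± 12.2 FPKM in Cxcr4+ and 65.9 ± 12.2 FPKM in Cxcr4- macrophages.

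Among ligands, Angpt2, the angiopoietin that binds Tek, had 2.11, 1.75 and 1.91 FPKM in Cxcr4+ libraries, against 1.55, 1.44 and 1.36 FPKM in Cxcr4- libraries (log2 change of 0.40 with SE 0.17, edgeR adjusted p = 0.999). Agrn, the agrin gene, had 8.11 ± 0.652 FPKM in Cxcr4+ and 9.92 ± 0.688 FPKM in Cxcr4- macrophages (-0.30, adjusted p = 0.999). The groups of both did not overlap, in opposite directions. Mst1, the ligand gene of Mst1r, had a log2 fold change of -0.25, and Vegfb, the most abundant ligand at 30.3 ± 0.824 FPKM in Cxcr4+ and 30.6 ± 3.74 FPKM in Cxcr4- macrophages, one of -0.02.

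**Figure D5:**
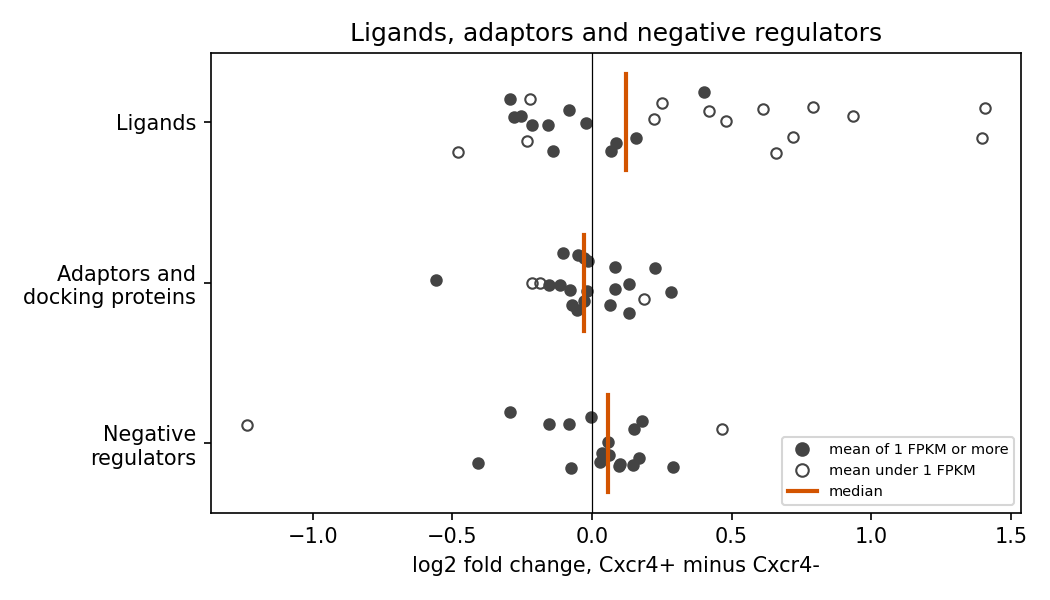
Log2 fold change (Cxcr4+ minus Cxcr4-) of the tested genes of 3 lists, with 26 ligands, 22 adaptors and docking proteins and 19 negative regulators; filled points have a mean of 1 FPKM or more, open points less, vertical position within a row is arbitrary and the orange bar is the median. The medians lie at 0.12, -0.03 and 0.06, and the points farthest from 0 are mostly open.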

How the data were processed

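One deposited table of 3 Cxcr4+ and 3 Cxcr4- libraries was used. The tools were StringTie, HISAT2 and cutadapt and the build GRCm39, per the submitters' processing notes; no source used here states versions, annotation release, counting settings or strand. The authors deposited estimated counts and FPKM, per the file headers. The estimated counts were whole, so rounding changed none. Of values from 1 to 20, 43.2% were multiples of 4, against 25% if spread evenly, so low counts can overstate fragments. FPKM entries at the constant minimum, where the count was 0, were read as 0.

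The main test was the quasi-likelihood test of edgeR 4.0.16 (R 4.3.3, legacy dispersions), with TMM scaling and group as the sole term, on the 16031 genes that filterByExpr kept at a minimum count of 10 and total of 15; p-values were Benjamini-Hochberg adjusted over them at 0.05. SEs were |log2 fold change| / sqrt(F). Exact tests used scipy 1.17.1, and figures matplotlib 3.10.9. Alternatives used DESeq2 1.42.0, limma 3.58.1, other scalings, filters, pseudocounts and detection thresholds, blocks and leaving out each library. The main test was also run on simulated counts with known changes. It recovered 1.43% of changes of 1.5-fold, 21.7% of 2-fold and 65.6% of 4-fold, with 4 false calls among 15474 genes. A gene that did not pass is therefore not shown to be unchanged.

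Members and lists were chosen with earlier results of these data known. Described by library were all detected members, those with unadjusted p under 0.05, and those under 1 FPKM with over 50% of their FPKM and at least 40 counts in 1 library. Pathway genes named by rule were those past the threshold, otherwise the 4 of smallest p at 1 FPKM or more, plus the most abundant.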

Additional observations from a re-analysis of the deposited data

How the results depend on the processing

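The number of members past the threshold was 0 in all alternatives except DESeq2, where it was 1, Ddr2. Over all genes the count of 5 became 65 with DESeq2, 2 with limma-trend on log2(FPKM + 1), 1 with a pseudocount of 5 and 1 to 9 with 1 library left out. The number detected stayed 4 except at a mean of 2 FPKM, where it was 2. The median log2 fold change over tested members was 0.34, but -0.052 with the filter at a mean of 1 FPKM, which leaves 4 members, -0.033 with counts divided by 4, which leaves 6, and -0.10 to 0.71 with 1 library left out. Leaving out 1 library turned the sign for Insr (-0.14 to 0.19), Erbb3 (-0.11 to 0.062) and Pdgfrb (-0.19 to 1.71), and no other alternative turned the sign of any of these or of Epha2, Ryk, Ddr2 or Pdgfra. Ddr2 ran from 0.03 on the log2(FPKM + 5) scale, which compresses low levels, to 2.15, and Epha2 from -0.56 to -0.28.

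The replicate number is shared by the groups, but same-numbered libraries deviated together with correlations of 0.04, 0.14 and 0.05, and Cxcr4+ replicate 1 was closest to Cxcr4- replicate 3, so the numbers were not treated as pairs. The correlation of 0.14, between the libraries numbered 2, was the largest of any pair across the groups. Adding the replicate number as a block left 0 genes past the threshold, with log2 fold changes of -0.41 for Epha2 (adjusted p = 0.318 by edgeR) and 1.90 for Ddr2 (adjusted p = 0.450). The unadjusted edgeR p of Epha2 was 0.00068 in that fit. With only the libraries numbered 2 as a block it was 0.00027 (adjusted p = 0.175), so Epha2 passed in neither. That block joins the libraries with the largest correlation in these same data, so its p is a description and not an independent test. Depth limits the 21 members that never passed 12 counts in a library.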
